A study of Mus musculus with 55 samples.

Results

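The cell cycle genes described here were a fixed list of 53 symbols, grouped by the phase in which they act and read from liver RNAseq of *Rnf43/Znrf3* mutant mice. All 53 were present among the 34490 gene symbols shared by the count tables of both sequencing batches, as 8 G1 cyclins and kinases, 18 replication genes and 27 mitotic genes. The list was set by symbol and not by any measured value.

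Cells leave quiescence when D-type cyclins bind Cdk4 or Cdk6 and then cyclin E binds Cdk2, which frees E2F factors to switch on genes for DNA licensing, nucleotide supply and synthesis. Mitotic genes are repressed in quiescence by the DREAM complex, which contains MuvB. They are switched on later by MuvB with B-Myb and Foxm1, and their products build the spindle, the kinetochore and the checkpoint. Hepatocytes of adult liver are mostly quiescent and re-enter the cycle after tissue loss or toxic injury.

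All mice were C57BL/6 and carried floxed *Rnf43* and *Znrf3* alleles, which encode E3 ubiquitin ligases that remove Wnt receptors from the cell surface. R&Zdel mice had both genes deleted in hepatocytes as adults, either by tamoxifen acting on AlbCre-ERT2 or by an AAV8 virus carrying Cre under the TBG promoter, so that other liver cells kept both genes. R&Zflox controls received vehicle or a null virus. Undamaged livers were taken 1 month after deletion (4 R&Zflox and 4 R&Zdel, 2 females and 2 males each, virus, batch 2), at 3 months (5 R&Zflox, all male, and 2 R&Zdel, 1 female and 1 male, both batches) and at 7 months (5 R&Zflox, 1 of them female, and 5 male R&Zdel, both batches). Mice of 3 months were induced with tamoxifen in batch 1 and with the virus in batch 2, and those of 7 months with tamoxifen in both batches. The means of induction thus changed with time and batch, and the undamaged fit had no term for it. Chronic damage (CD) was a course of repeated carbon tetrachloride (CCl4) doses to tamoxifen-induced males of batch 1, with livers taken 4 days (2 R&Zflox and 2 R&Zdel), 50 days (1 R&Zflox and 2 R&Zdel) and 170 days (2 and 2) after the last dose. Partial hepatectomy (PHx), the surgical removal of part of the liver, was followed by recovery for 7 days (3 and 3 males) or 21 days (3 male R&Zflox, 2 male and 1 female R&Zdel), with the virus and in batch 2. The 2 female livers of batch 1, an R&Zdel of 3 months and an R&Zflox of 7 months, have titles that conflict with their characteristics, and the characteristics placed them. Both R&Zflox livers of 170 days also appear under the earlier CD time in the study's list of libraries, so the later CD times are those of the labels. The smallest group, R&Zflox at 50 days of CD, was a single mouse, whose variance was taken to be that of the other groups.

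The 48 libraries assigned to a group held between 11721687 and 32168223 counts. Levels are CPM, counts scaled to library size, after TMM scaling within each batch. They were not compared between batches, except in the search for outlying libraries given near the end. Mitotic genes were caught far less evenly in batch 2, where a median of 13.5 of the 27 had a count in a library (5 to 25), than in batch 1, where the median was 26 (21 to 27). Gene totals of *Rnf43* and *Znrf3* were higher in R&Zdel than in R&Zflox (batch 1 medians of 24.9 and 11.1 CPM for *Rnf43*), but they include exons outside the deleted part and so did not check the deletion. Summed hepatocyte markers ran from 52010 to 150500 CPM in the libraries of batch 1, so the tissue matched its label.

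Promoters of the list are shown first, because the classes compared in these livers differ in them. RefSeq promoters on GRCm38.p6, running from 250 bases before to 50 bases after each start, were found for 42 of the 53 genes (46 promoters). Letters searched on both strands were CCAAT (bound by NF-Y), the CHR letters TTTGAA or TTCGAA (bound by DREAM and MuvB) and the E2F letters TTTGGCG and the related spellings TTTCGCG and, also counted, TTTCCCG. CHR letters were found in 18 of 22 mitotic promoters (81.8%), in 4 of 18 replication promoters (22.2%), in 0 of 6 G1 promoters and in 19.2% of all 32851 promoters. E2F letters were found in 8 of 18 replication promoters (44.4%), in 1 of 6 G1 promoters (16.7%), in 13.6% of mitotic promoters and in 5.58% of all. CCAAT was found in 81.8% of mitotic, 72.2% of replication and 33.3% of G1 promoters, and in 37.4% of all. Such matches are letters in a window and not measured binding sites.

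The promoters of 6 genes illustrate the classes over 170 bases before and 30 bases after the start, on the strand of the gene, with every CCAAT, CHR and E2F match in capitals. *Cdc20* (chr4:118437314-118437513, minus strand), *Ccnb2* (chr9:70421525-70421724, minus) and *Cdk1* (chr10:69352883-69353082, minus) are mitotic genes that rose after CCl4. *Mcm5* (chr8:75109339-75109538, plus) and *Mcm6* (chr1:128359676-128359875, minus) are licensing genes. *Ccne1* (chr7:38107461-38107660, minus) is a G1 cyclin.
Cdc20: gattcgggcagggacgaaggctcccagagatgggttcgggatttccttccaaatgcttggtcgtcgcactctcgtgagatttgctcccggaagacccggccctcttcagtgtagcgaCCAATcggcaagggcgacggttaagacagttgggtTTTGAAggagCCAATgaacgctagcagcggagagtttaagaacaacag
Ccnb2: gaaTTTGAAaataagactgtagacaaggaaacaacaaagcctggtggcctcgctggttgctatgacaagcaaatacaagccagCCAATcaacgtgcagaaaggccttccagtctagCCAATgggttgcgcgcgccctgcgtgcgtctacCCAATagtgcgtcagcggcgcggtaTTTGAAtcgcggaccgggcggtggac
Cdk1: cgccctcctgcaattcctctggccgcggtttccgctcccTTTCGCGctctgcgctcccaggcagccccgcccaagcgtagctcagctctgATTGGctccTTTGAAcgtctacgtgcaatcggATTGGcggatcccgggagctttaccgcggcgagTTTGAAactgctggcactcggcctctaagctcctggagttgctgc
Mcm5: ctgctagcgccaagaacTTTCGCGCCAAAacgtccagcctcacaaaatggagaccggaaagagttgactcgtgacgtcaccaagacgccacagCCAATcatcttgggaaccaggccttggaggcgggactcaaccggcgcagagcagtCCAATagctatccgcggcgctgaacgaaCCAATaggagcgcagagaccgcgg
Mcm6: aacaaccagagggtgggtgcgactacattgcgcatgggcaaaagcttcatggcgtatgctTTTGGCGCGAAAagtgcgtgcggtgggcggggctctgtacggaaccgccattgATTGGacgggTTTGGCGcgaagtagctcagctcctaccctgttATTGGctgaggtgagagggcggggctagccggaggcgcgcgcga
Ccne1: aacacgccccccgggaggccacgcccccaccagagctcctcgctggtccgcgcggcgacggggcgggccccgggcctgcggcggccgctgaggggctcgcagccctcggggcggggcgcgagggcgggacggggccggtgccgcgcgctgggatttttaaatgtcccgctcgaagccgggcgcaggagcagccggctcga
In *Cdc20* the CHR match lay between a pair of CCAAT matches near the start, and *Ccnb2* and *Cdk1* each held CCAAT and CHR matches in the same stretch. *Cdk1* also held an E2F match, TTTCGCG. Some genes not shown go against their class, as the licensing gene *Mcm2* had a CHR and no E2F match and the mitotic gene *Birc5* the reverse. *Mcm5* and *Mcm6* held CCAAT and E2F matches and no CHR match. In both, 2 E2F matches on opposite strands share letters and are printed as 1 run of capitals. *Ccne1* held none of the searched letters.

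Undamaged liver held transcripts of all 3 classes at very different levels. Per length, as RPKM (reads scaled to gene length and library size, batch 1 only), the highest mean levels over the 4 undamaged R&Zflox livers were those of *Cdk4*, the partner kinase of D cyclins, at 33.9, *Tk1*, a thymidine salvage kinase, at 13.2, and *Gmnn*, the inhibitor of origin licensing, at 11.2. The lowest were those of the mitotic phosphatase *Cdc25c* at 0.00486 and the checkpoint kinase *Bub1* at 0.00801. The 27 mitotic genes together summed to between 13.7 and 26.7 CPM in the 4 R&Zflox livers and between 17.7 and 33.4 CPM in the 3 R&Zdel livers, so the ranges overlapped.

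At 4 days after CCl4 the mitotic genes were up in both genotypes. Their summed level was 132 and 252 CPM in the 2 R&Zflox livers and 318 and 343 CPM in the 2 R&Zdel livers, which was 10.6-fold and 12.7-fold the mean of the undamaged livers of the same genotype. All 4 damaged livers lay above all 7 undamaged ones. The replication genes summed to 116 and 154 CPM in R&Zflox, 1.25-fold the undamaged mean, and to 352 and 209 CPM in R&Zdel, 2.06-fold. The G1 genes summed to 125 and 151 CPM in R&Zflox (1.20-fold) and to 217 and 264 CPM in R&Zdel (1.67-fold). In whole liver, more cells in cycle and more RNA per cycling cell cannot be told apart.

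**Figure D1:**
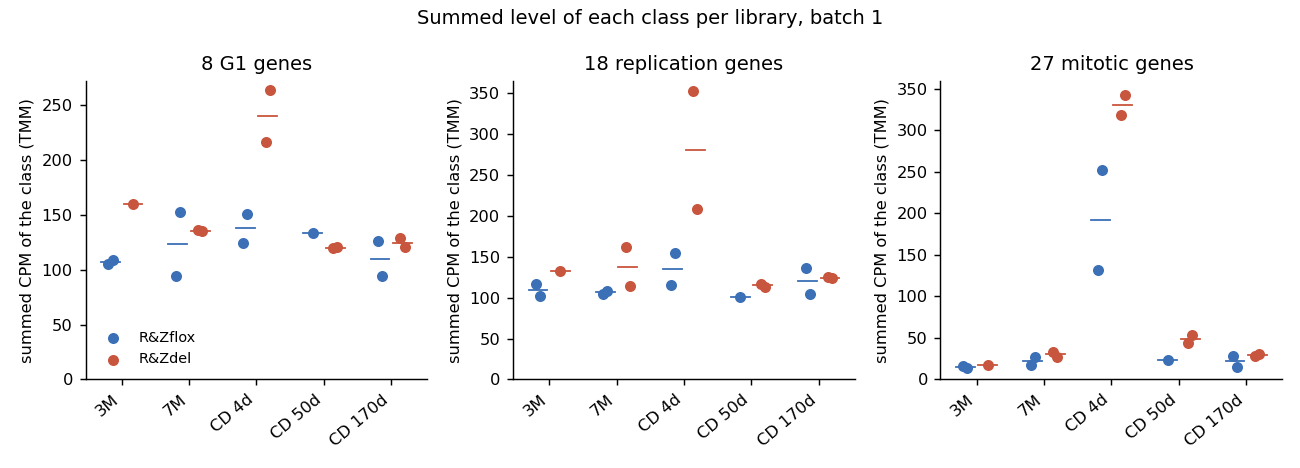
Summed CPM of the G1, replication and mitotic genes in each library of batch 1 (y axis, TMM-scaled CPM, starting at 0), by genotype and condition along the x axis. Mitotic genes peak 4 days after CCl4 in both genotypes (132 to 343 CPM against 13.7 to 33.4 CPM undamaged), and all 3 classes are higher in the 2 R&Zdel than in the 2 R&Zflox livers at that time.

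*Cdc20*, which activates the anaphase-promoting complex, had 0.434, 1.25, 0.909 and 1.55 CPM in the undamaged R&Zflox livers and 27.6 and 57.9 CPM in those taken 4 days after CCl4. In R&Zdel it had 1.41, 4.17 and 2.61 CPM undamaged and 33.2 and 44.4 CPM after CCl4. Both damaged groups stood clear of their undamaged livers, and the damaged R&Zdel values fell inside the range of the damaged R&Zflox ones. The log2 fold changes were 5.30 ± 0.50 (SE; adjusted p = 8.38e-05) in R&Zflox and 3.93 ± 0.49 (adjusted p = 0.000133) in R&Zdel, by edgeR's quasi-likelihood test with Benjamini-Hochberg adjustment over all genes tested.

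A gene was called changed at an adjusted p under 0.1 and an absolute log2 fold change above 1. Of the 53 genes, 31 passed the filter on low counts in this comparison (7 G1, 16 replication, 8 mitotic). In R&Zflox, 11 of the 31 rose and 0 fell, with 4.61% of all genes called in either direction and 2.64% called higher. All 8 tested mitotic genes rose, with a class median log2 fold change of 3.47, against 0.62 for the replication class, 0.26 for the G1 class and -0.01 for all genes. *Ccnb2*, a partner of Cdk1, rose by 4.44 ± 0.40, *Birc5*, a subunit of the chromosomal passenger complex, by 3.93 ± 0.41, *Ccna2*, cyclin A, by 3.87 ± 0.44, *Cdk1*, the mitotic kinase, by 3.07 ± 0.44, *Aurka*, a spindle pole kinase, by 3.06 ± 0.40, *Mki67*, the Ki67 proliferation antigen, by 3.03 ± 0.54, and *Cenpa*, the centromeric histone, by 2.02 ± 0.36.

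Of the 23 tested G1 and replication genes, 3 were called higher in R&Zflox. *Mcm6*, a subunit of the replicative helicase, had 1.16, 0.351, 1.96 and 4.10 CPM undamaged and 9.63 and 13.3 CPM after CCl4 (log2 fold change 3.07 ± 0.55, adjusted p = 0.0084, edgeR). Its paralog subunit *Mcm3* rose by 1.17 ± 0.37 on the log2 scale (adjusted p = 0.0948, edgeR), a call that was lost in 5 of 6 fits with 1 library left out. *Ccnd1*, cyclin D1, had 4.67, 4.72, 9.19 and 35.1 CPM undamaged and 15.97 and 23.9 CPM after CCl4, and the groups overlapped at the 35.1 CPM of the female liver. With sex in the fit *Ccnd1* rose by 1.50 ± 0.37 (adjusted p = 0.0363, edgeR), a call that was lost in 2 of 6 fits with 1 library left out. It was also lost with 3 libraries of conflicting labels placed in the CD groups (1.51, adjusted p = 0.446, edgeR). *Mcm2* (1.48 ± 0.54, adjusted p = 0.145, edgeR), *Mcm5* (1.49 ± 0.51, adjusted p = 0.121), *Ccne1* (0.71 ± 0.66, adjusted p = 0.615) and *Pcna*, the sliding clamp (-0.12 ± 0.28, adjusted p = 0.862), were not called. Without the second of the 2 damaged R&Zflox libraries the count of genes called fell from 11 to 6. Without the 2 undamaged livers of conflicting labels it was 14 in R&Zflox, with *Mcm2* (1.80, adjusted p = 0.0433, edgeR) and *Mcm5* (1.68, adjusted p = 0.0837) among them, and 21 in R&Zdel.

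In R&Zdel, 22 of the 31 genes rose and 0 fell, with 26.5% of all genes called in either direction. The same 8 mitotic genes rose (median log2 fold change 3.95), with 11 of 16 replication genes (median 1.43) and 3 of 7 G1 genes (median 0.38), while the median of all genes was 0.03. *Ccna2* rose by 4.35 ± 0.47, *Cdk1* by 4.26 ± 0.47 and *Mki67* by 4.18 ± 0.57. *Ccnd1* rose by 2.65 ± 0.38, *Ccnd2*, cyclin D2, by 2.50 ± 0.38 and *Ccne1*, cyclin E1, by 2.18 ± 0.70. *Mcm5* rose by 2.65 ± 0.52, *Mcm2* by 2.12 ± 0.53 and *Pcna* by 1.05 ± 0.29, while the smallest changes called were those of *Pcna*, *Mcm7* (1.19 ± 0.22), *Cdt1*, a licensing factor (1.40 ± 0.39), *Rrm1*, a ribonucleotide reductase subunit (1.47 ± 0.28) and *Mcm4* (1.63 ± 0.59). Not called were *Cdk4* (0.38 ± 0.22), *Cdk2* (0.09 ± 0.27), *Cdk6* (0.35 ± 0.20), *Ccnd3* (0.15 ± 0.22), *E2f1* (0.77 ± 0.36), *E2f8* (-0.05 ± 0.58), *Gmnn* (0.39 ± 0.26), *Tyms* (0.93 ± 0.19) and *Tk1* (-0.44 ± 0.29).

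**Figure D2:**
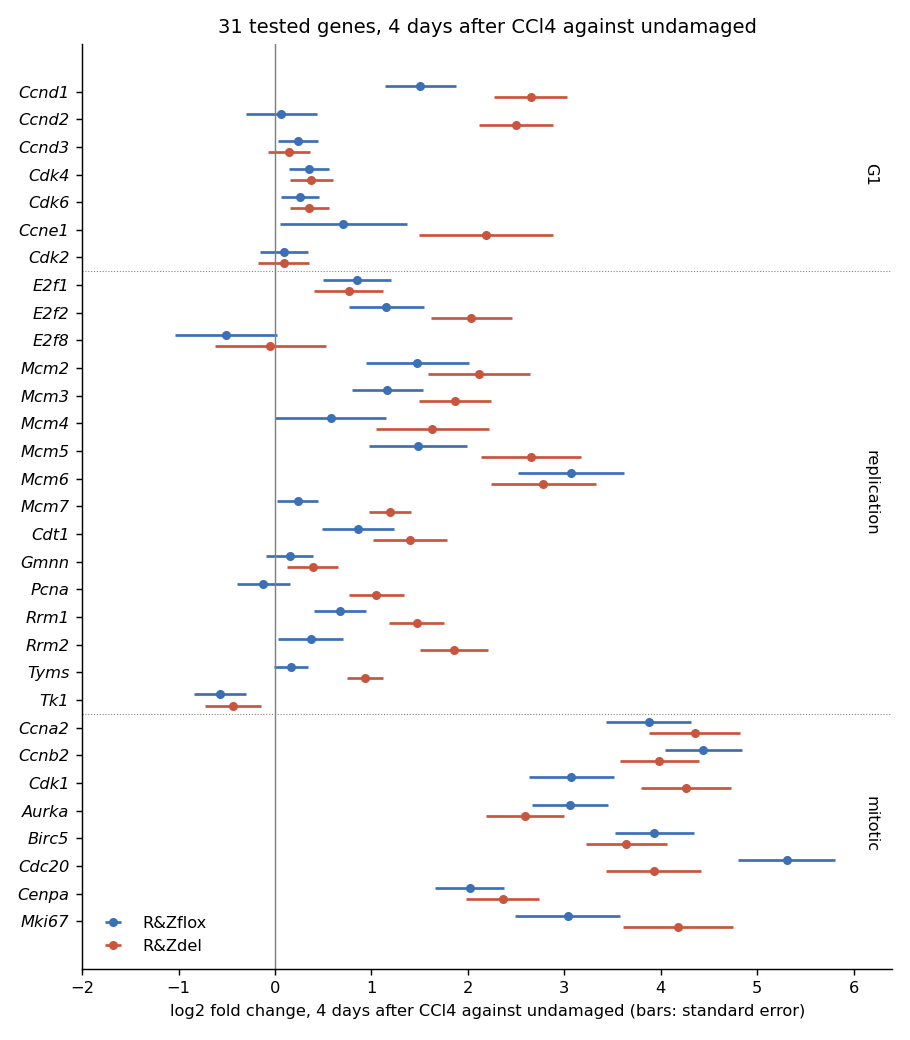
Log2 fold change (x axis, bars are standard errors) of the 31 tested genes 4 days after CCl4 against undamaged liver of batch 1, for R&Zflox and R&Zdel. The 8 mitotic genes have the highest class median in both genotypes (3.47 and 3.95) and in R&Zflox are overlapped by *Mcm6* alone among the others, and the replication genes lie further right in R&Zdel (median 1.43) than in R&Zflox (median 0.62).

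The filter had kept 8 of 27 mitotic genes, since the others were under 1 CPM in most of the 18 livers of the fit, and not only in the undamaged ones. With every gene that had a count in the fit, 27 of 27 mitotic genes were called higher in R&Zflox (3.51% of all genes were) and 27 of 27 in R&Zdel (15.5% of all genes were). The same setting called 4 of 18 replication and 1 of 8 G1 genes in R&Zflox, and 12 of 18 and 3 of 8 in R&Zdel. *Ccnb1*, cyclin B1, had 0.241, 0.0502, 0.192 and 0 CPM undamaged and 3.11 and 8.43 CPM after CCl4 in R&Zflox, and 0.240, 1.07 and 0.327 against 5.25 and 8.26 CPM in R&Zdel. *Plk1*, a kinase of mitotic entry, rose from between 0.239 and 0.351 CPM to 4.45 and 6.92 CPM in R&Zflox. Neither gene's damaged values overlapped the undamaged ones.

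Whether the 2 genotypes responded unequally was tested as the difference between their fold changes, where 3 of the 31 genes and 16.8% of all genes were called. *Ccnd2* gained 2.43 more in R&Zdel on the log2 scale (adjusted p = 0.0124, edgeR), *Rrm2*, the regulated ribonucleotide reductase subunit, 1.48 more (adjusted p = 0.0518) and *Pcna* 1.17 more (adjusted p = 0.058). Without the 2 undamaged livers of conflicting labels the count was again 3, but *Pcna* was not called (1.09, adjusted p = 0.132, edgeR). Of the 8 mitotic genes, 0 were called and 0 had an unadjusted p under 0.05 (33.4% of all genes did), with 2 livers in each damaged group.

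Compared directly, R&Zdel livers 4 days after CCl4 had more transcript of *Ccnd1*, *Ccnd2* and 9 of 16 tested replication genes than R&Zflox livers. Of 36 tested genes (7 G1, 16 replication, 13 mitotic), 14 were called higher and 0 lower, while 15.2% of all genes were called and 10.3% called higher. They were 2 G1, 9 replication and 3 mitotic genes, and the class medians of the log2 fold change were 0.68, 1.09 and 1.02, against 0.06 for all genes. *Ccnd1* had 15.97 and 23.9 CPM in R&Zflox and 70.6 and 82.3 CPM in R&Zdel, and *Ccnd2* had 9.09 and 7.13 against 25.1 and 42.2 CPM. Neither D cyclin overlapped between genotypes, with log2 fold changes of 2.02 ± 0.29 (adjusted p = 0.00356, edgeR) and 2.14 ± 0.28 (adjusted p = 0.00275). With the libraries of conflicting labels placed in the CD groups, *Ccnd1* was not called (2.01, adjusted p = 0.263, edgeR), while *Ccnd2* was (2.13, adjusted p = 0.044).

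The helicase subunits, the clamp and the nucleotide enzymes made up most of the replication calls. *Mcm5* had 3.37 and 8.50 CPM in R&Zflox and 31.03 and 15.6 CPM in R&Zdel (log2 fold change 2.04 ± 0.46, adjusted p = 0.0191, edgeR). *Rrm2* had 7.31 and 7.55 against 42.0 and 21.1 CPM (2.16 ± 0.36, adjusted p = 0.00632). *Pcna* had 6.23 and 7.66 against 20.8 and 10.8 CPM (1.26 ± 0.31, adjusted p = 0.0247). In all 3 genes both R&Zdel livers were above both R&Zflox livers, and the first R&Zdel liver had the highest value. *Mcm2* (1.54 ± 0.32), *Mcm4* (1.50 ± 0.47), *Mcm3* (1.32 ± 0.30), *Mcm6* (1.26 ± 0.46), *Rrm1* (1.12 ± 0.26) and *Tyms*, thymidylate synthase (1.07 ± 0.21), were called as well. Of the replication calls, *Mcm4* (adjusted p = 0.12, edgeR) and *Mcm6* (adjusted p = 0.19) were lost with the libraries of conflicting labels placed.

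Among mitotic genes the genotypes differed unevenly. *Top2a*, the topoisomerase that separates sister DNA, had 1.63 and 4.53 CPM in R&Zflox and 20.3 and 17.3 CPM in R&Zdel (2.68 ± 0.65, adjusted p = 0.0242, edgeR). *Mki67* had 4.02 and 8.32 against 22.9 and 22.5 CPM (1.96 ± 0.59, adjusted p = 0.0493), and *Cdk1* 9.34 and 17.9 against 39.5 and 39.2 CPM (1.61 ± 0.28, adjusted p = 0.00717). All 3 were separated by genotype, with the R&Zdel pair close together. With the libraries of conflicting labels placed in the CD groups, none of these 3 mitotic genes was called. They were then at 2.68 (*Top2a*, adjusted p = 0.123, edgeR), 1.95 (*Mki67*, adjusted p = 0.115) and 1.60 (*Cdk1*, adjusted p = 0.156). *Ccna2* (1.02 ± 0.42, adjusted p = 0.117, edgeR), *Ccnb2* (0.47 ± 0.28, adjusted p = 0.261), *Cdc20* (-0.06 ± 0.37, adjusted p = 0.928) and *Cenpa* (0.01 ± 0.34, adjusted p = 0.994) were not called, and neither was *Ccne1* (1.97 ± 0.78, adjusted p = 0.11), with 0.724 and 2.53 against 8.23 and 3.97 CPM. *Ccne2*, cyclin E2, and *Ccnb1* were too low to be tested here. With no filter on low counts 27 of the 53 were called higher (3 G1, 10 replication and 14 mitotic; 9.70% of all genes were). The count of 14 fell to 4 without the first R&Zflox library, to 8 without the first R&Zdel library, and to 8 with the libraries of conflicting labels placed in the CD groups.

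**Figure D3:**
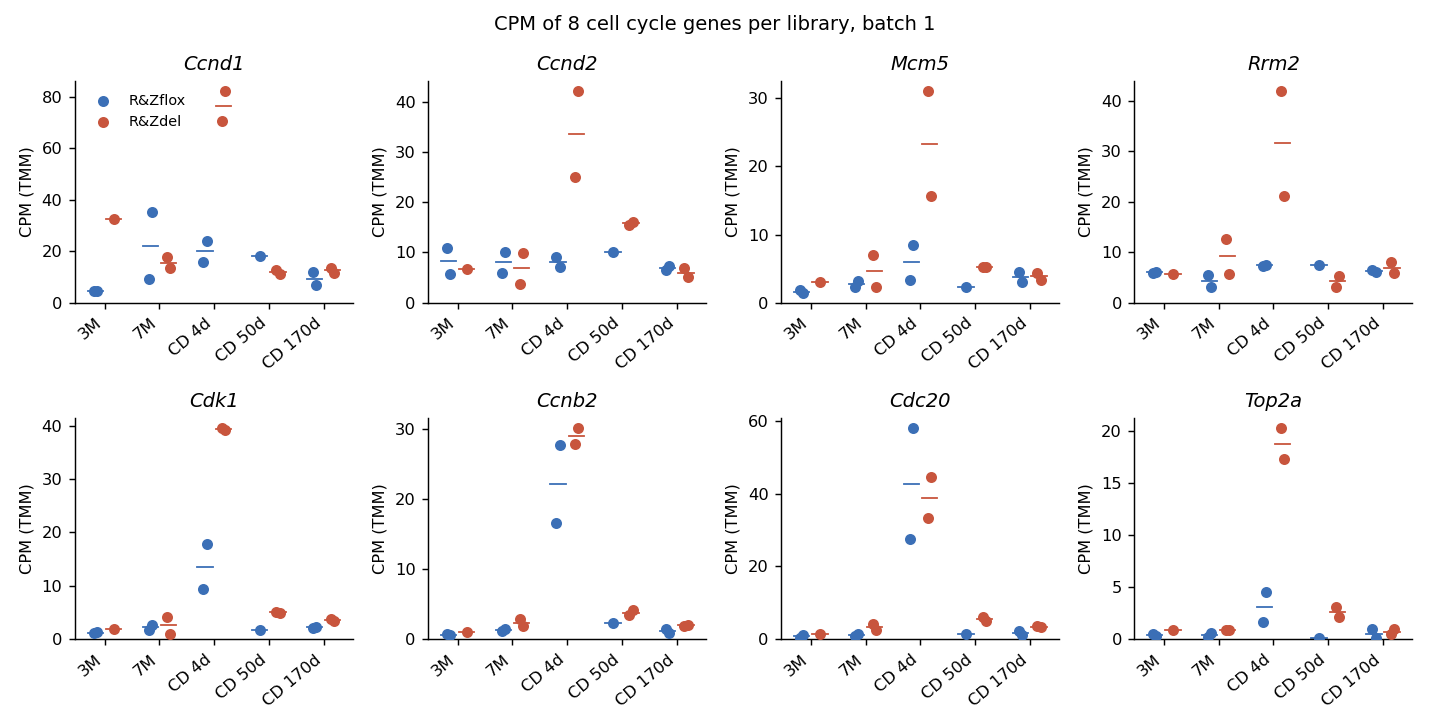
CPM of 8 cell cycle genes in each library of batch 1 (y axes start at 0 and differ between panels), by genotype and condition. *Ccnd1* and *Rrm2* stand out in R&Zdel 4 days after CCl4 (70.6 and 82.3 CPM for *Ccnd1*), while *Cdc20* is high in both genotypes at that time.

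Summed markers of several liver cell types differed between genotypes at the same time, when 15.2% of all genes were called and 10.3% called higher. With 2 livers in each group, sums can fail to overlap by chance. Summed markers of bile duct cells (6 genes, 6 detected in each liver) were at 2678 and 4179 CPM in R&Zdel against 94.3 to 162 CPM in R&Zflox, and 5 of 5 tested were called higher. Stellate cell and fibroblast markers (8 genes, all detected) summed to 215 and 587 CPM in R&Zdel against 88.6 and 129 CPM in R&Zflox, with 3 of 8 called higher. Markers of Kupffer cells and macrophages overlapped between genotypes (843 and 2219 against 1013 and 2037 CPM; 1 of 9 higher, 1 lower), as did those of neutrophils (23.4 and 57.2 against 46.2 and 58.5 CPM; 0 of 3), red cells (557 and 635 against 605 and 683 CPM; 1 of 5 lower) and B cells (6.56 to 12.6 against 11.4 to 17.4 CPM; 0 of 5). Markers of T and NK cells (13.9 to 25.5 against 7.13 to 11.7 CPM; 1 of 3 higher), endothelial cells (72.8 to 135 against 231 to 236 CPM; 2 of 6 lower) and hepatocytes (52010 to 71940 against 105900 to 106000 CPM; 1 of 9 lower) did not overlap. The part of these cells in the cell cycle result was not tested.

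At 50 days after CCl4 the mitotic sums were closer to those of undamaged liver than at 4 days. The mitotic sum was 22.9 CPM in the 1 R&Zflox liver, inside the undamaged range, and 44.3 and 53.4 CPM in R&Zdel, above all 3 undamaged R&Zdel livers. Of the 36 tested genes, 3 were called higher in R&Zdel and 0 lower, with 5.58% of all genes called and 2.64% called higher. They were the mitotic genes *Cdk1* (1.72 against 5.22 and 5.01 CPM, log2 fold change 1.65 ± 0.40, adjusted p = 0.0726, edgeR), *Birc5* (1.45 against 3.46 and 4.52 CPM, 1.55 ± 0.43, adjusted p = 0.0929) and *Cdc20* (1.54 against 6.12 and 5.01 CPM, 1.93 ± 0.57, adjusted p = 0.0983). With no filter on low counts 9 of 27 mitotic, 2 of 18 replication and 0 of 8 G1 genes were called, all higher (7.70% of all genes were called). Class medians of the tested genes were 1.65 (mitotic), 0.42 (replication) and -0.29 (G1), against 0.01 for all genes, and 5 of the 13 tested mitotic genes passed the filter here but not with undamaged liver in the fit. *Mki67* (1.93 ± 0.89, adjusted p = 0.233, edgeR), *Top2a* (3.92 ± 1.17, adjusted p = 0.101) and *Ccna2* (0.40 ± 0.57, adjusted p = 0.71) were not called.

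*Ccnd1* had 18.2 CPM in the R&Zflox liver and 12.8 and 11.2 CPM in R&Zdel at this time (-0.53 ± 0.34, adjusted p = 0.38, edgeR). The other genes kept in view had log2 fold changes of -0.63 ± 0.97 (*Ccne1*), 0.96 ± 0.43 (*Mcm2*), 1.27 ± 0.62 (*Mcm5*) and -0.14 ± 0.38 (*Pcna*), none of them called. The genotype difference of *Ccnd1* was smaller at 50 than at 4 days by 2.55 on the log2 scale (adjusted p = 0.0476, edgeR; 1.50% of all genes were called in this test), and that of *Rrm2* by 2.91 (adjusted p = 0.058). With 3 libraries of conflicting labels placed in the CD groups, *Ccnd1* was at 1.31 between genotypes at 50 days, and neither difference was called (-0.70 and -2.47, adjusted p = 0.886 and 0.105, edgeR). In these libraries *Znrf3* was at 8.12 and 7.86 CPM where placed as R&Zdel and at 18.47 CPM where placed as R&Zflox. Assigned livers of batch 1 had 4.67 to 10.04 CPM in R&Zflox and 12.64 to 27.45 CPM in R&Zdel. Which genotype these libraries hold was not tested. Leaving out either of the R&Zdel livers, or adding libraries whose labels conflict to the CD groups, left 0 of the 3 mitotic calls, and the fit blocked on replicate number called 1. The likelihood ratio test called 7 (9.05% of all genes), DESeq2 7 (9.19%) and the compared groups alone 6 (10.7%).

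Against undamaged liver, R&Zflox at 50 days had 0 of 31 genes called by edgeR (0.00% of all genes), 3 at an unadjusted p under 0.05 (2.33%) and 0 by DESeq2 (0.00894%). R&Zdel had 4 called higher and 1 lower, with 15.4% of all genes called. *Ccnd2* (15.6 and 16.03 CPM against 3.76 to 9.89 CPM), *Ccna2*, *Cdk1* and *Ccnb2* rose by 1.42 ± 0.38, 1.41 ± 0.47, 1.33 ± 0.46 and 1.08 ± 0.41 on the log2 scale, and *Rrm2* fell by 1.01 (SE 0.37, adjusted p = 0.0635, edgeR). None was called when only the undamaged R&Zdel liver of 3 months, which has conflicting labels, was the reference, 1 was called (*Ccnd2*) without the 2 undamaged livers of conflicting labels, and the count lay between 1 (without that liver) and 8 (without the first R&Zdel liver of 7 months) when 1 library was left out. Without 1 of the 2 damaged livers it was 3 or 2.

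At 170 days 0 of 36 genes were called between genotypes by edgeR (0.625% of all genes were), 1 had an unadjusted p under 0.05 (9.26% of all genes) and DESeq2 called 0 (2.56%). Against undamaged liver 0 of 31 were called in either genotype by edgeR (0.00%) or DESeq2 (0.769% and 0.599% of all genes), with 1 in R&Zflox (7.60%) and 0 in R&Zdel (8.30%) at an unadjusted p under 0.05. The mitotic sum was 27.9 and 15.5 CPM in R&Zflox and 28.7 and 31.2 CPM in R&Zdel, within or close to the undamaged ranges. *Ccnd1* had 11.9 and 6.90 against 13.7 and 11.5 CPM (0.40 ± 0.29, adjusted p = 0.783, edgeR). With the 3 libraries of conflicting labels left unassigned, genotype differences were smaller at 170 than at 4 days for *Ccnd2* (by 2.37 on the log2 scale, adjusted p = 0.0236, edgeR; 6.92% of all genes were called), *Rrm2* (2.03), *Mcm2* (1.91), *Ccnd1* (1.62) and *Tyms* (1.32). With those libraries placed, *Tyms* alone was called (1.37 smaller at 170 days).

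**Figure D4:**
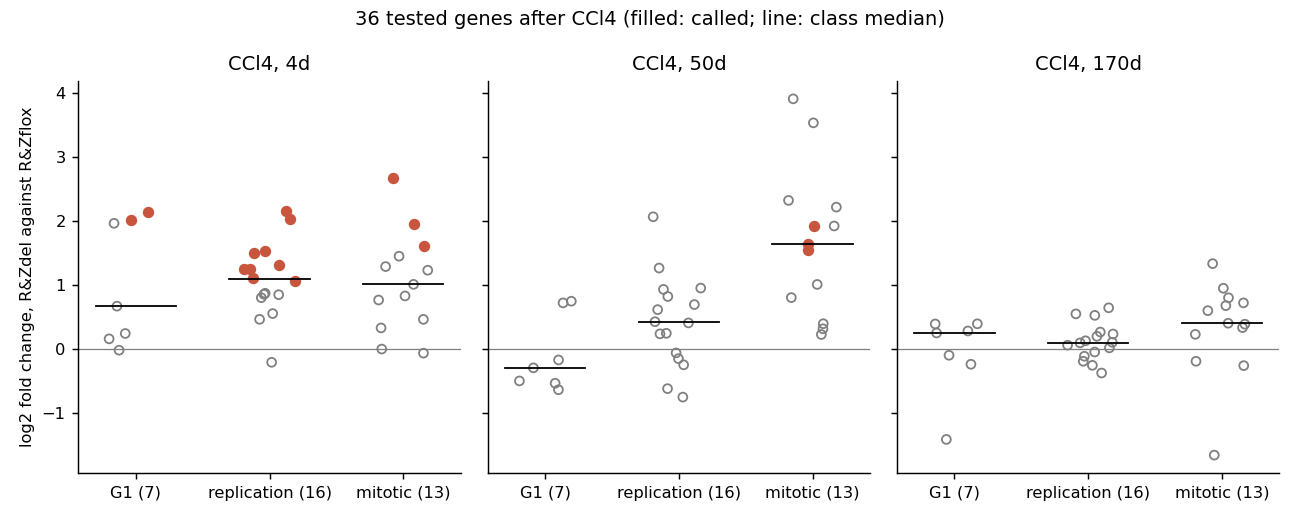
Log2 fold change of R&Zdel against R&Zflox (y axis) for the 36 tested genes at 4, 50 and 170 days after CCl4, 1 point per gene, by class; filled points were called and lines are class medians. Called genes are spread over all classes at 4 days (14), are 3 mitotic genes at 50 days, and number 0 at 170 days. Of all genes, 15.2%, 5.58% and 0.625% were called at these times.

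Without damage, deletion of *Rnf43* and *Znrf3* gave no change called by edgeR's quasi-likelihood test among the filtered genes of this list at any age. Of 47 tested genes (8 G1, 17 replication, 22 mitotic), 0 were called at 1, 3 or 7 months by edgeR, while 0.436%, 0.226% and 0.451% of all genes were. At an unadjusted p under 0.05 there were 5, 2 and 4 genes (7.74%, 6.43% and 8.89% of all genes), and DESeq2 called 2, 0 and 0 (2.35%, 1.04% and 0.716%). At 1 month edgeR called 2 with no filter on low counts (0.524% of all genes) and 2 by its likelihood ratio test (1.46%). The class medians of the log2 fold change at 1 month were 0.49 (G1), 0.44 (replication) and 1.00 (mitotic), against 0.01 for all genes, and at 7 months they were -0.37, 0.38 and 0.78, against -0.02. In this fit too a gene could pass the filter through 3 livers of 1 group. At 3 months the mitotic median was -0.87 and that of all genes -0.09.

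*Tpx2* and *Rrm2* had the lowest p-values of the list at 1 month. *Tpx2*, a spindle assembly factor, had 0 CPM in all 4 R&Zflox livers and 5.37, 4.48, 4.38 and 0.0464 CPM in R&Zdel (adjusted p = 0.149, edgeR). *Rrm2* had 0.264, 0.382, 0.569 and 0 CPM in R&Zflox and 13.1, 2.88, 5.38 and 14.5 CPM in R&Zdel (log2 fold change 4.79 ± 1.36, adjusted p = 0.208, edgeR). Neither overlapped between genotypes at 1 month. Both were picked by the p-value of this comparison, so the lack of overlap is no further support. *Tpx2* could pass the filter through the R&Zdel livers alone, and the share of all genes without overlap was not counted. At 7 months in the same batch *Rrm2* was at 3.29, 4.66 and 9.12 CPM in R&Zflox and at 0, 8.27 and 0.350 CPM in R&Zdel.

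*Ccnd1* was higher in females than in males. At 1 month the 4 females, 2 of each genotype, had between 63.4 and 118 CPM (median 86.0) and the 4 males between 16.4 and 26.9 CPM (median 19.4), with no overlap. The genotype difference with sex in the fit was 0.03 ± 0.60 on the log2 scale (adjusted p = 1, edgeR). Of the 47 tested genes, 3 were higher in all females than in all males (*Ccnd1*, *Mcm6* and *Top2a*) and 0 were lower, where 2.68% of all genes were higher without overlap. These 3 were named after their values had been seen. In batch 1 the 2 highest undamaged values of *Ccnd1*, 35.1 and 32.5 CPM, also belonged to the female livers, both of conflicting labels, while the 5 males had 4.67 to 17.8 CPM.

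**Figure D5:**
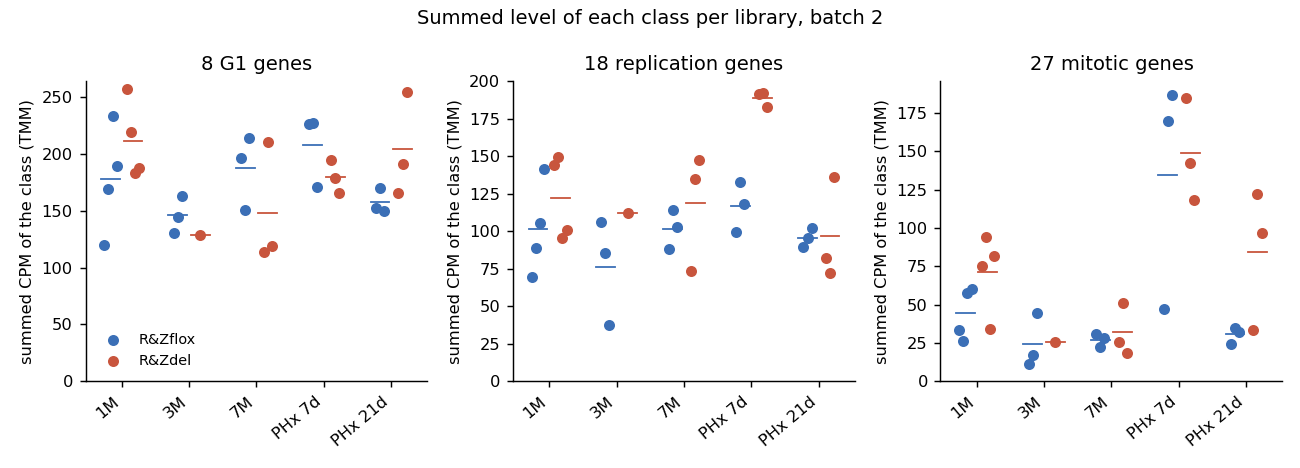
Summed CPM of the G1, replication and mitotic genes in each library of batch 2 (y axis, TMM-scaled CPM, starting at 0), by genotype and condition. Mitotic sums reach their highest value 7 days after PHx (47.0 to 187 CPM), where they overlap those of other groups, and the replication sums of the 3 R&Zdel livers at that time (183 to 192 CPM) lie above those of the 3 R&Zflox livers (99.7 to 133 CPM), although on the mean log2 CPM of the class the genotypes overlap (0.65 to 2.74 against 1.23 to 1.72).

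At 7 days after PHx the mitotic genes summed to 47.0, 170 and 187 CPM in R&Zflox and to 185, 142 and 118 CPM in R&Zdel, which was 3.03-fold and 2.08-fold the undamaged mean of the genotype. Undamaged sums ran from 26.4 to 60.3 CPM in R&Zflox and from 33.9 to 94.0 CPM in R&Zdel, so that 1 R&Zflox liver overlapped them and no R&Zdel liver did. The livers after PHx were all male, and the sums were not adjusted for sex. Undamaged R&Zflox females had 57.6 and 60.3 CPM and males 33.5 and 26.4 CPM. In R&Zdel the females had 75.4 and 94.0 CPM and the males 33.9 and 81.9 CPM. Of 48 tested genes, 0 were called in either genotype against undamaged liver by edgeR (0.0235% and 0.0157% of all genes were), while DESeq2 called 8 in R&Zflox (1.54% of all genes) and 1 in R&Zdel (1.51%). By the rule the study used for PHx, an unadjusted p under 0.05 with an absolute log2 fold change above 1, 10 rose and 0 fell in R&Zflox (4.46% of all genes were called) and 5 rose and 1 fell in R&Zdel (3.95%).

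The median log2 fold change of the 23 tested mitotic genes was 3.37 in R&Zflox and 1.82 in R&Zdel, against 0.05 and 0.01 for all genes, where a gene could pass the filter through the 3 livers of 1 group. *Ccnd1* had 58.8, 83.8 and 87.7 CPM in R&Zflox and 79.2, 70.0 and 58.2 CPM in R&Zdel after PHx, all from males, while undamaged males had 16.4 to 26.9 CPM. With sex in the fit the log2 fold changes were 1.72 ± 0.48 and 1.55 ± 0.47 (adjusted p = 0.624 and 0.862, edgeR). *Cdk1* had 5.18, 11.5 and 27.1 CPM in R&Zflox after PHx against 0 to 7.21 CPM undamaged, and *Mki67* had 1.23, 7.82 and 29.9 CPM against 0 to 16.8 CPM, both with overlap. *Aurkb*, the kinase of the chromosomal passenger complex, had 0 counts in the undamaged R&Zflox livers and 204 counts over the 3 livers after PHx. This is 137-fold higher if 3 counts over the group are taken as the floor. It was not called by edgeR, and zeros were common among mitotic genes in this batch.

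Between genotypes at 7 days 0 of 48 genes were called by edgeR (0.274% of all genes were) or DESeq2 (1.67%), and 2 passed the unadjusted rule (3.99% of all genes did). *Mcm5* had 0.370, 0.256 and 1.27 CPM in R&Zflox and 16.4, 46.2 and 6.39 CPM in R&Zdel, with no overlap (5.20 ± 2.42, adjusted p = 0.817, edgeR). *Ccne1* had 0, 6.60 and 5.68 CPM in R&Zflox and 0 counts in all 3 R&Zdel livers, which was at least 75.2-fold lower (adjusted p = 0.76, edgeR). *Ccne1* was at or near 0 in 6 of 8 undamaged livers of 1 month as well, and at 4.88 and 4.64 CPM in the other two.

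At 21 days neither genotype had a gene called against undamaged liver by edgeR (0 of 48, 0.00% of all genes). At an unadjusted p under 0.05 there were 3 in R&Zflox (6.93% of all genes) and 2 in R&Zdel (4.91%), and DESeq2 called 3 (2.65%) and 0 (1.37%). Between genotypes edgeR's quasi-likelihood test called *Cdc20* alone (1 of 48 higher, 0 lower, 0.329% of all genes), while its likelihood ratio test called 2 (0.994%) and DESeq2 called 5 (3.42%). It had 0 counts in all 3 R&Zflox livers and 9.98, 2.15 and 11.3 CPM in R&Zdel, which was at least 118-fold higher (adjusted p = 0.0656, edgeR). The lowest R&Zdel value lay inside the 0 to 4.08 CPM of the undamaged R&Zflox livers. The call was lost in males alone, in the fit blocked on replicate number and in 4 of the 6 fits that left out 1 library of 21 days (the second R&Zdel, or any of the 3 R&Zflox), with adjusted p-values up to 0.23 in edgeR. By the unadjusted rule 4 genes were higher (*Cdc20*, *Mcm2*, *Rrm2* and *Aurkb*) and 2 lower (*Ccne1* and *Cdt1*), where 6.56% of all genes passed. The mitotic sum had returned to 24.6 to 34.8 CPM in R&Zflox and was 33.1, 122 and 96.8 CPM in R&Zdel, with overlap. Tests of unequal genotype effects between undamaged, 7 day and 21 day livers called 0 of 48 genes by edgeR (0.00% of all genes), with 5 at an unadjusted p under 0.05 for 7 days (4.75% of all genes) and 3 for 21 days (5.76%) against undamaged liver.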

How the data were processed

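Libraries of whole liver RNA were made with Smart-Seq2. Per the labels and file headers, the authors trimmed reads (Trim Galore by the notes, Sickle by the methods), aligned them to mm10 with STAR 2.5.0a and counted exons without strand with featureCounts (1.5.0-p1 and 1.5.0-p3). The deposited values are raw counts per gene, 1 table per library in batch 1 and 1 table in batch 2. Counts of the 34490 symbols shared by both were fitted in edgeR 4.0.16 (quasi-likelihood F test, TMM). The undamaged fit had terms for group, sex and batch, the PHx fit for group and sex, the CD fit for group, and the fit of CD against undamaged liver of batch 1 for group and sex. Genes above 1 CPM in 3 libraries were tested. In the CD fits a gene needed at least 1 CPM in as many libraries as were below it, or more. This is the study's rule for its chronic damage model, and it was used here also for the fit against undamaged liver. Comparisons within a fit share control samples, so they are not independent. P-values measure the spread between these mice. Groups came from the labels; 5 of 53 libraries, whose labels conflict or lack a group, were assigned to none, 2 more of conflicting labels were placed by their characteristics, and 2 samples had no count column used here. All 53 genes are accounted for, and the text names called genes (the 5 largest and 5 smallest where over 10 were called) and 11 fixed genes. The members, the gene lists and the marker lists were chosen with earlier results of these data known. Values on the log2 CPM scale used a prior count of 0.5. Scripts were tested on simulated data. Alternatives, run in edgeR, DESeq2 1.42.0, limma 3.58.1 and R 4.3.3, covered scaling, filter, test, terms, threshold, replicate block, unassigned libraries and each library left out.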

Additional observations from a re-analysis of the deposited data

Results flagged for a closer look

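In 5 of 70 groups of 4 or 5 libraries tested by Dixon's criterion, 1 library stood far from the others. The groups of 5 libraries, those of 3 and 7 months, held both batches, whose detection of these genes differed. The chance rate of about 1 in 20 tests therefore need not hold for them. The flagged livers of 7 months were all of batch 2. On the log2 CPM scale *Mki67* was at -0.17 in the first R&Zdel liver of 1 month (nearest other 3.14), *Ccna2* at -5.27, the value of 0 counts, in the third R&Zdel liver of 7 months (nearest -0.14), *Mcm2* at -5.27 in the second R&Zflox liver of 7 months (nearest 1.15) and *Mcm5* at -5.27 in the third R&Zflox liver of 7 months (nearest -0.24). *Ccne1* was at -4.04 in the fourth R&Zflox liver of 1 month, with the 3 others at -5.27.

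The genotype difference (log2 fold change of R&Zdel against R&Zflox) was unequal between conditions, by a test of that difference in edgeR, for 10 results. From 4 to 50 days after CCl4 it changed by -2.55 for *Ccnd1* (adjusted p = 0.0476) and by -2.91 for *Rrm2* (adjusted p = 0.058). With 3 libraries of conflicting labels placed in the CD groups these were -0.70 (adjusted p = 0.886) and -2.47 (adjusted p = 0.105), and the *Ccnd1* difference at 50 days was 1.31 instead of -0.53. From 4 to 170 days it changed by -1.62 for *Ccnd1* (adjusted p = 0.0643), -2.37 for *Ccnd2* (adjusted p = 0.0236), -1.91 for *Mcm2* (adjusted p = 0.0571), -2.03 for *Rrm2* (adjusted p = 0.066) and -1.32 for *Tyms* (adjusted p = 0.0509), of which *Tyms* alone was called with those libraries placed. Between undamaged liver and 4 days after CCl4 it changed by 2.43 for *Ccnd2* (adjusted p = 0.0124), 1.17 for *Pcna* (adjusted p = 0.058) and 1.48 for *Rrm2* (adjusted p = 0.0518).

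Among the 5 libraries assigned to no group, 3 had summed mitotic levels of 65.7, 55.6 and 34.2 CPM, above the 26.7 CPM of the highest undamaged R&Zflox liver of the batch.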

How the results depend on the processing

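In this section genes called are counted in either direction, and the share of all genes called moved with the setting too. At 50 days of CD that share was 5.58% in the main fit, 9.19% by DESeq2 and 10.7% with the compared groups alone. With 3 libraries of conflicting labels placed, 0 of 11365 genes were called between genotypes at that time. A changed count is therefore not a result about this list alone. With no filter on low counts the count was 2 for genotype at 1 month, 4, 1 and 1 for PHx against undamaged liver (R&Zflox and R&Zdel at 7 days, R&Zflox at 21 days), 27, 11 and 1 for genotype at 4, 50 and 170 days of CD, and 32 and 42 (R&Zflox and R&Zdel at 4 days), 1 and 14 (50 days) and 2 (R&Zflox, 170 days) for CD against undamaged liver. An unadjusted threshold gave 2 and 6 for genotype at 7 and 21 days of PHx, 10 and 6 for R&Zflox and R&Zdel at 7 days against undamaged liver, and 3 and 2 at 21 days. An adjusted threshold of 0.05 gave 0 for genotype at 21 days of PHx and at 50 days of CD, and 2 for R&Zdel at 50 days against undamaged liver. The likelihood ratio test gave 2 (genotype, 1 month), 2 (PHx, 21 days), 2 and 1 (R&Zflox at 7 and 21 days of PHx against undamaged liver) and 7 (CD, 50 days), and DESeq2 gave 2, 5, 8 and 3, and 7 for the same, and 1 for R&Zdel at 7 days of PHx against undamaged liver. The compared groups alone gave 0 at 21 days of PHx, and 26 and 6 at 4 and 50 days of CD, and males alone gave 0 at 21 days of PHx. Placing 3 libraries of conflicting labels gave 8 and 0 at 4 and 50 days of CD and 0 for R&Zdel at 50 days against undamaged liver, and it reversed *Ccnd1* (1.31), *Ccna2* (-0.21) and *Ccne1* (0.57) at 50 days. *Znrf3* in each of those libraries lay within the range of the other genotype's assigned livers of batch 1. With those libraries placed, 0 and 1 genes had unequal genotype effects at 50 and 170 against 4 days of CD, and without the 2 undamaged livers of conflicting labels 1 was called for R&Zdel at 50 days (both chosen after seeing the data). The undamaged group nearest in time gave 0 for R&Zdel at 50 days. The cause of these changes was not tested.

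Leaving out 1 library gave 4 to 16 calls for genotype at 4 days of CD, 0 at 50 days, 0 to 1 at 21 days of PHx, 6 to 14 and 17 to 24 for R&Zflox and R&Zdel at 4 days against undamaged liver, 1 to 8 for R&Zdel at 50 days and 0 to 1 for R&Zflox at 170 days. *Pcna* ranged from -0.35 to 0.025 at 50 days of CD (above 0 without the first R&Zdel library) and from -0.29 to 0.033 in R&Zflox at 4 days against undamaged liver (above 0 without the first damaged library), and *Ccne1* there from -0.47 (without the second) to 1.35. The only R&Zflox library of 50 days could not be left out. With the replicate number as a block the count was 13 at 4 days of CD, 1 at 50 days, 0 at 21 days of PHx and 1 for R&Zdel at 50 days against undamaged liver. Same-numbered libraries deviated together in no regular way (correlations of -0.52 to 0.29), so the numbers were not taken as pairs. A crossed block for the 170 days of CD, where the correlation was -0.52, was chosen after seeing the data and gave 0. Over all alternatives, 262 of 320 recomputed counts stayed within the limit for an unchanged count, 33 were higher and 25 lower. Of 1046 recomputed single-gene values, 888 kept their direction and call, 126 lost the call, 26 gained it and 6 turned. Changes of genes at 0 counts in most libraries were not detectable at this depth, and the part of depth in the uneven detection of batch 2 was not tested.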

Other observations

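Of another 96 cell cycle genes, listed by function from general knowledge, 92 were among the shared symbols. At 4 days after CCl4, 21 of the 62 tested were called higher in R&Zdel than in R&Zflox and 2 lower (median log2 fold change 0.88), by edgeR's quasi-likelihood test with adjustment over all genes, of which 10.3% were called higher and 15.2% in either direction. *Mycn*, a Myc family factor, rose by 2.91, *Pole*, the leading strand polymerase, by 2.54 and *Gins2*, a helicase cofactor, by 2.23, while *Mcm10*, an initiation factor, fell by 2.65 and *Pttg1*, securin, fell by 1.05. At 50 days 4 were called higher and 1 lower (5.58% of all genes), and at 170 days 0 (0.625%), with 5 at an unadjusted p under 0.05 (9.26%). Against undamaged liver at 4 days, 13 of 57 were called higher and 0 lower in R&Zflox (4.61% of all genes), and 31 higher and 3 lower in R&Zdel (26.5%), where *Ube2c*, the ubiquitin carrier of the anaphase-promoting complex, rose by 4.70. In undamaged liver 0 of 73 were called at 1, 3 or 7 months (0.226% to 0.451% of all genes), with 5, 1 and 6 at an unadjusted p under 0.05 (7.74%, 6.43% and 8.89%). After PHx 0 of 85 were called at 7 or 21 days (0.274% and 0.329%), and 3 and 19 passed the unadjusted rule (3.99% and 6.56%).

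The 2 other unassigned libraries had summed mitotic levels of 17.5 and 19.3 CPM, inside the range of the undamaged R&Zflox livers of the batch.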
